A study of Mus musculus with 4 samples.

Results

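The aquaporin family, the membrane channels for water and small solutes, was examined in RNA sequencing of whole uteri of pregnant mice. The 9 genes Aqp1, Aqp2, Aqp3, Aqp4, Aqp5, Aqp7, Aqp8, Aqp9 and Aqp11 were taken by symbol from the 55421 genes listed for each library, and all 9 were found. Levels are given in CPM, a gene's counts scaled to the total count of its library. A filter of 1 CPM, to be reached in 2 or more libraries, was passed by 4 of the 9, against 14492 of the 55421. The 2 WT libraries came from C57BL/6J mice. The 2 Qa2- libraries came from mice of B6.Cg-H2b3/FlaCmwJ, a strain congenic for the major histocompatibility region (H2) that lacks the Qa-2 class I antigens. All 4 mice were at gestational age E18.5, had been mated within their own strain as young adults, and gave 1 library each. The labels give no further allele or agent for either group. The comparison asks how uterine RNA differs between both strains, and an effect of Qa-2 and one of other genes of the H2 segment cannot be told apart. The strains came from different suppliers, and effects of supplier or of other background genes cannot be told apart from these either.

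Aquaporins form pores in the plasma membrane through which water follows osmotic gradients. The classical members, here Aqp1, Aqp2, Aqp4, Aqp5 and Aqp8, conduct mainly water, the aquaglyceroporins Aqp3, Aqp7 and Aqp9 also pass glycerol, and Aqp11 is an unorthodox member found on intracellular membranes. In the uterus several members have been described in the lining epithelium, the vessels and the muscle, and steroid hormones regulate some of them.

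The total count was 41041299 and 39399991 read pairs in WT replicates 1 and 2 and 34922010 and 33286390 in Qa2- replicates 1 and 2. Both WT libraries were thus deeper, and 1 CPM stood for between 33.3 and 41 pairs. Counts of the Qa-2 gene H2-Q7 were 6318 and 1251 in WT and 4 and 2 in Qa2-, and those of H2-Q6 were 4204 and 1192 against 3 and 3. These genes are similar in sequence, and how reads that match both were counted was not checked. The counts of both followed the labels. WT replicate 2 stood apart in several lists of cell type markers. All 9 genes of a smooth muscle list and all 5 erythroid genes kept had their highest value in it. In a uterine epithelium list, 15 of 17 genes had their lowest value there. Over all genes kept, 4671 (32.2%) were lowest in that library, and the number that were highest in it was not counted. Genes of the fetal membranes differed between single libraries. The yolk sac gene Afp was at 3.85 and 32.2 CPM in WT and 379.5 and 20.7 CPM in Qa2-, and 8 yolk sac genes together had 9.48 and 51.6 CPM in WT and 572.2 and 35 CPM in Qa2-. Rbp4, the other gene of that list, went against them, at 955.6 CPM in WT replicate 1 and between 7.42 and 13.8 CPM elsewhere.

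Aqp8, Aqp1 and Aqp5 carried nearly all aquaporin RNA of the uterus. Per kilobase of exon, the mean level over the 4 libraries was 352.7 CPM for Aqp8, 125.9 for Aqp1 and 64 for Aqp5. The other members lay far lower, at 0.179 for Aqp3, 0.164 for Aqp11, 0.149 for Aqp2, 0.0855 for Aqp9, 0.0762 for Aqp7 and 0.00204 for Aqp4. Aqp8 was above Aqp1 in 3 libraries and below it in WT replicate 2, where their levels per kilobase were 120.6 and 136.3 CPM, so these neighbours in the order were not separated beyond their spread. Aqp1 exceeded Aqp5 in each of the 4 libraries, by 1.59 and 5.19 times in WT and by 1.61 and 1.6 times in Qa2-. The 6 low members overlapped their neighbours in this order.

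**Figure D1:**
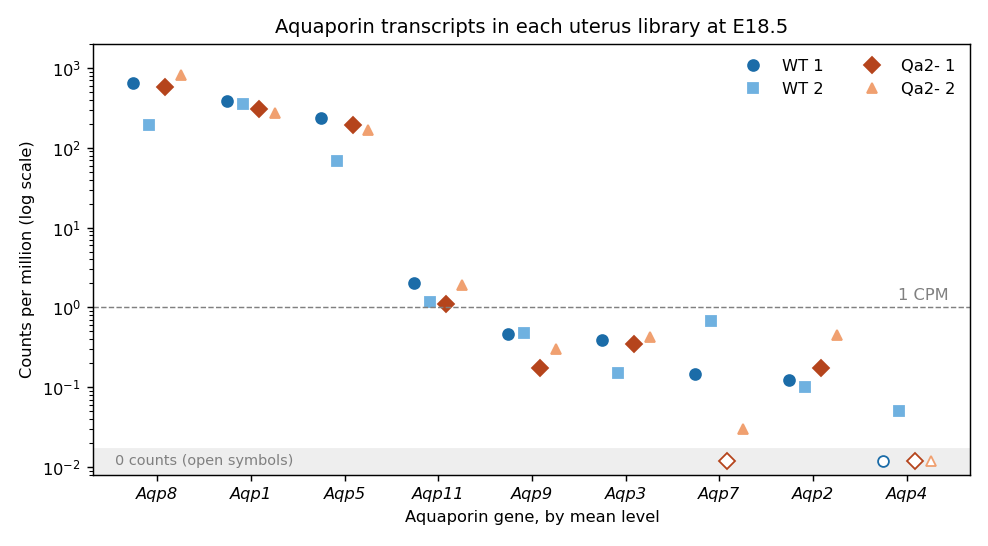
Level of each of the 9 aquaporins in each library, in CPM on a log axis, with the 1 CPM level that a gene had to reach in at least 2 libraries drawn as a line and libraries with 0 counts as open symbols at the bottom. Aqp1, Aqp5 and Aqp8 lie between 68.2 and 808.6 CPM, Aqp11 between 1.12 and 2 CPM, and the other members at or below 0.685 CPM.

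The makeup of the family differed more between the 2 WT uteri than between the groups. Aqp8 made up 63.5% and 42.5% of the summed level per kilobase in WT and 65.7% and 75% in Qa2-. For Aqp1 the shares were 22.4% and 48% in WT and 21.1% and 15.3% in Qa2-. Aqp5 took 14% and 9.25% in WT and 13.1% and 9.57% in Qa2-, and the other 6 genes together took between 0.0839% and 0.227%. WT replicate 1 resembled the Qa2- libraries in these shares, and WT replicate 2 had the lowest Aqp8 share and the highest Aqp1 share. The summed level of the 9 genes was 1272 and 619.7 CPM in WT and 1083 and 1254 CPM in Qa2-. The groups overlapped in this sum, and the lowest value again belonged to WT replicate 2.

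**Figure D2:**
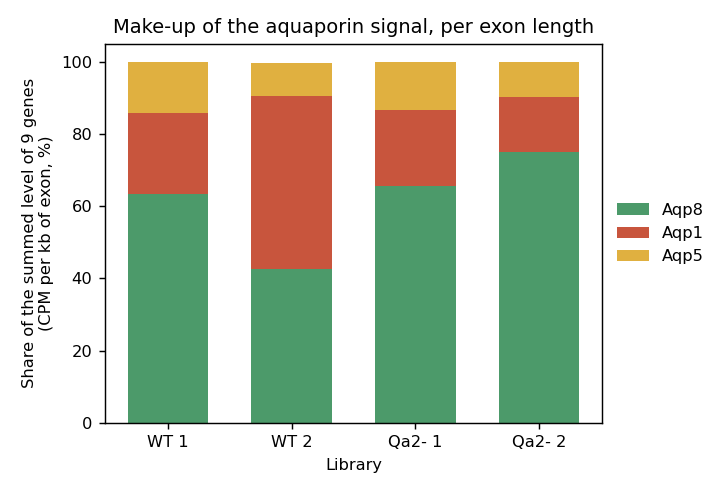
Share of Aqp8, Aqp1 and Aqp5 in the summed level per kilobase of exon of the 9 genes, in percent, as stacked bars for each library. Aqp8 takes from 42.5% in WT replicate 2 to 75% in Qa2- replicate 2, and Aqp1 from 48% to 15.3% in the same libraries.

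Aqp8 (ENSMUSG00000030762; GRCm38, chromosome 7, 123462291 to 123468004, plus strand), a water channel found in epithelia, had the highest mean level of the family. It had 26708 and 7515 counts in WT and 20267 and 26915 counts in Qa2-, which is 650.8 and 190.7 CPM against 580.4 and 808.6 CPM. The groups overlapped, since WT replicate 1 lay between the Qa2- libraries and WT replicate 2 lay below all others. The WT mean was 420.7 CPM ± 325.3 (SD, n = 2) and the Qa2- mean 694.5 CPM ± 161.4 (SD, n = 2). The log2 fold change of WT over Qa2- was -0.63 with a standard error of 0.59, and it did not pass edgeR's quasi-likelihood test (Benjamini-Hochberg adjusted p = 0.632). The difference between the WT libraries, 3.41 times in CPM, was matched or exceeded by 1.75% of all genes kept. In bulk tissue, fewer cells of a type and less RNA per cell cannot be told apart.

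Aqp5 (ENSMUSG00000044217; chromosome 15, 99590782 to 99594829, plus strand), known as a water channel of secretory glands, had the same low library. Its counts were 9709 and 2689 in WT and 6662 and 5640 in Qa2-, or 236.6 and 68.2 CPM against 190.8 and 169.4 CPM. Both Qa2- values lay between the WT values. The means were 152.4 CPM ± 119 (SD, n = 2) in WT and 180.1 CPM ± 15.1 (SD, n = 2) in Qa2-. The log2 fold change of -0.16 with a standard error of 0.56 did not pass the test (edgeR adjusted p = 0.909). The WT libraries differed by 3.47 times, and 1.7% of all genes kept differed by as much or more.

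Aqp8 and Aqp5 were low in the same library, and the sequences upstream of their RefSeq start sites are shown because they held a motif in common. The sequences are those of RefSeq on GRCm38.p6, with CACGTG, the letters of an E-box, in capitals. For Aqp8 the stretch is chr7:123462044-123462290, plus strand, and the motif lies 75 bases before the start site. For Aqp5, 30 bases at chr15:99590929-99590958, plus strand, are given, with the motif 87 bases before the RefSeq start site. This stretch lies inside the gene as counted, whose start in the count annotation is further upstream.
Aqp8: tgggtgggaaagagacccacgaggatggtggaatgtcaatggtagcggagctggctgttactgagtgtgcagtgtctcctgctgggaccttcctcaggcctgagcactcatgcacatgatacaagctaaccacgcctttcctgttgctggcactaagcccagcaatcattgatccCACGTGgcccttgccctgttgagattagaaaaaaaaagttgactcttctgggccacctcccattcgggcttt
Aqp5: tgccgcgtgggtCACGTGgcccgggcgggt
CACGTG, whose reverse complement reads the same, was held by 7.15% of the 32851 promoter windows of 300 bases, and not by those of Aqp1 and Aqp11. The longer run CACGTGGCCC, which contains it, was held by both Aqp5 and Aqp8 and by 0.146% of all windows, counting both strands. It was chosen as the longest run that both promoters have, after the letters were seen. Among other motifs searched on both strands, GGTCA, letters that nuclear receptors recognise, was held by Aqp5 and Aqp11 and by 40.5% of all windows. GGGCGG, the letters of a GC box, was held by Aqp1 and Aqp5 and by 35.7%. TATAAA (13.6%) and AGAACA (19%) were in none of the 4 windows. A match of letters is not a binding site, and binding was not measured here.

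Aqp8 lay at a similar distance from the median of the epithelial genes in every library, but not from each of them. On the log2 scale, Aqp8 exceeded the median of the 17 genes of the uterine epithelium list by 1.72 and 1.24 in WT and by 1.51 and 1.44 in Qa2-. The group means of this difference were 1.48 and 1.48, and its range over the 4 libraries was 0.48, although Aqp8 itself ranged over 4.24 times in CPM. Against single genes of the list the log2 range ran from 0.44 for Prom1 to 3.14 for Ltf, with a median of 0.92. The epithelial list, which holds keratins, claudins and gland markers, had summed levels of 6717 and 3445 CPM in WT and 7167 and 12730 CPM in Qa2-. Without Ltf, which alone had 5183 CPM in Qa2- replicate 2, the sums were 5398 and 2846 CPM in WT and 6746 and 7543 CPM in Qa2-. Aqp5 stood at 0.26 and -0.24 log2 units from the same list median in WT and at -0.09 and -0.81 in Qa2-. This range of 1.08 was wider than that of Aqp8, and the groups overlapped. Against the 9 smooth muscle genes the difference of Aqp8 ranged from -5.11 in WT replicate 2 to -1.20 in Qa2- replicate 2. The part of tissue composition in the aquaporin levels was not tested.

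**Figure D3:**
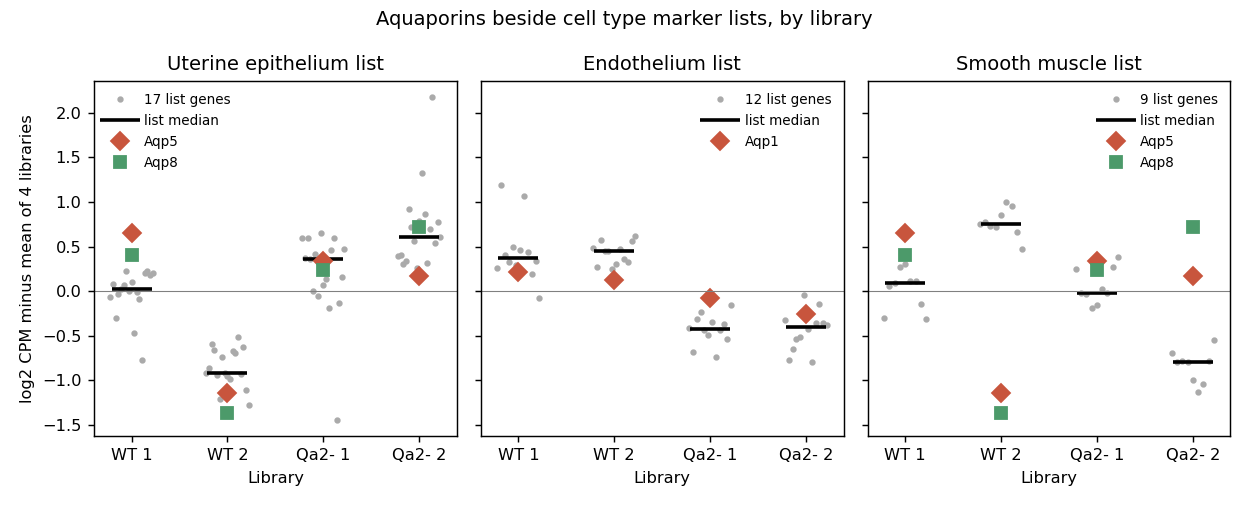
Centred log2 CPM (each gene minus its mean over the 4 libraries) of Aqp5, Aqp8 and Aqp1 beside the genes of 3 cell type marker lists in each library, with the list median as a bar. The median of the epithelial list is -0.92 in WT replicate 2 and between 0.02 and 0.60 elsewhere, that of the endothelial list is 0.37 and 0.45 in WT and -0.42 and -0.40 in Qa2-, and that of the smooth muscle list is highest, at 0.75, in WT replicate 2.

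By the rule for likeness (the smallest root-mean-square difference in centred log2 CPM over 4 libraries), the genes closest to Aqp8 were Gjb1 (0.062), Sv2b (0.073) and Lars2 (0.096). Gjb1, which encodes a gap junction connexin, was at 45.4 and 14.4 CPM in WT and 42.4 and 54.4 CPM in Qa2-. The genes closest to Aqp5 were Tbc1d2 (0.053), Tuba8 (0.074) and the signalling ligand gene Wnt7b (0.123). Tbc1d2 was at 22.2 and 7.01 CPM in WT and 19.2 and 16.3 CPM in Qa2-. Aqp5 and Aqp8 differed from each other by 0.325 on this measure. With 4 libraries, such likeness describes these values only.

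Aqp1 (ENSMUSG00000004655; chromosome 6, 55336432 to 55348555, plus strand), the water channel of capillary endothelium and red blood cells, was the steadiest of the abundant members. It had 15645 and 14110 counts in WT and 10828 and 9097 counts in Qa2-, giving 381.2 and 358.1 CPM against 310.1 and 273.3 CPM. Both WT values lay above both Qa2- values, and the highest exceeded the lowest by 1.39 times. The means were 369.7 CPM ± 16.3 (SD, n = 2) and 291.7 CPM ± 26 (SD, n = 2). The fitted difference was 1.35-fold, a log2 fold change of 0.43 with a standard error of 0.21, and it did not pass the test (edgeR adjusted p = 0.384). DESeq2 gave 0.43 as well, with an adjusted p of 0.311. Of all genes kept, 18.7% had both WT values above both Qa2- values in CPM and 25.4% had so after TMM scaling.

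Endothelial, erythroid and mesothelial markers had higher values in WT, as Aqp1 had, with larger fold changes at the list medians (0.88, 2.41 and 3.33 on the log2 scale). All 12 endothelial genes had higher CPM in both WT libraries, against 18.7% of all genes kept (25.4% after TMM scaling). Of the 12, 11 had an unadjusted p under 0.05 in edgeR (15.2% of all genes kept in either direction), and 0 passed the adjusted test. DESeq2 called 9 of the 12 higher in WT, as well as 5 erythroid and 4 mesothelial genes, against 4.83% of all genes in either direction. The extremes were Cldn5, a tight junction gene (128.7 and 85 CPM in WT, 36.9 and 35.4 CPM in Qa2-, log2 fold change 1.66), and Esam (0.61). On the log2 scale, Aqp1 exceeded the endothelial median by 1.93 and 2.04 in WT and by 2.65 and 2.46 in Qa2-, so that Aqp1 relative to this list was higher in both Qa2- libraries. The erythroid list had summed levels of 356.5 and 692.4 CPM in WT and 117.8 and 79.9 CPM in Qa2-, mostly haemoglobin genes. Of its 9 genes 5 were kept, from Hbb-bt (2.66) to Alas2 (2.02) in log2 fold change, and the marker Rhag was at 0. The mesothelial list summed to 128.6 and 132.8 CPM in WT and 106 and 61.3 CPM in Qa2-, with extremes Nkain4 (4.43) and Wt1 (0.18). Wt1 overlapped between the groups and made up 61.9 and 79.4 CPM of these sums in WT and 84.2 and 48.9 CPM in Qa2-. Upk1b, Lrrn4 and Nkain4 were below 1 CPM in both Qa2- libraries and passed the filter only through the WT libraries. The mesothelial median and calls above thus rest partly on genes kept because WT was high. The part of these cells in the Aqp1 values was not tested.

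Aqp11 (ENSMUSG00000042797; chromosome 7, 97724006 to 97738289, minus strand) was the only other member above the filter. Its counts were 82 and 46 in WT and 39 and 63 in Qa2-, or 2 and 1.17 CPM against 1.12 and 1.89 CPM. WT replicate 1 and Qa2- replicate 2 were high and the other libraries low, so the groups overlapped. The log2 fold change of 0.17 with a standard error of 0.47 did not pass the test (edgeR adjusted p = 0.883). The genes closest to it were Pde8b (0.052), at 12.3 and 7.01 CPM in WT and 6.64 and 12.3 CPM in Qa2-, Adtrp (0.059) and A730063M14Rik (0.063).

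None of the 4 members kept passed an adjusted p of 0.05, and none of all 14492 genes did (0%), the smallest adjusted p in edgeR being 0.17. At an unadjusted p under 0.05 edgeR had 0 of the 4 aquaporins, against 2199 (15.2%) of all genes. DESeq2 called 0 of the 4 and 4.83% of all genes. The median log2 fold change of the 4 members was 0.01, beside 0.012 for all genes kept. These p-values measure the spread between 2 mice per strain, and an exact permutation test of any single value could not go below p = 0.33.

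**Figure D4:**
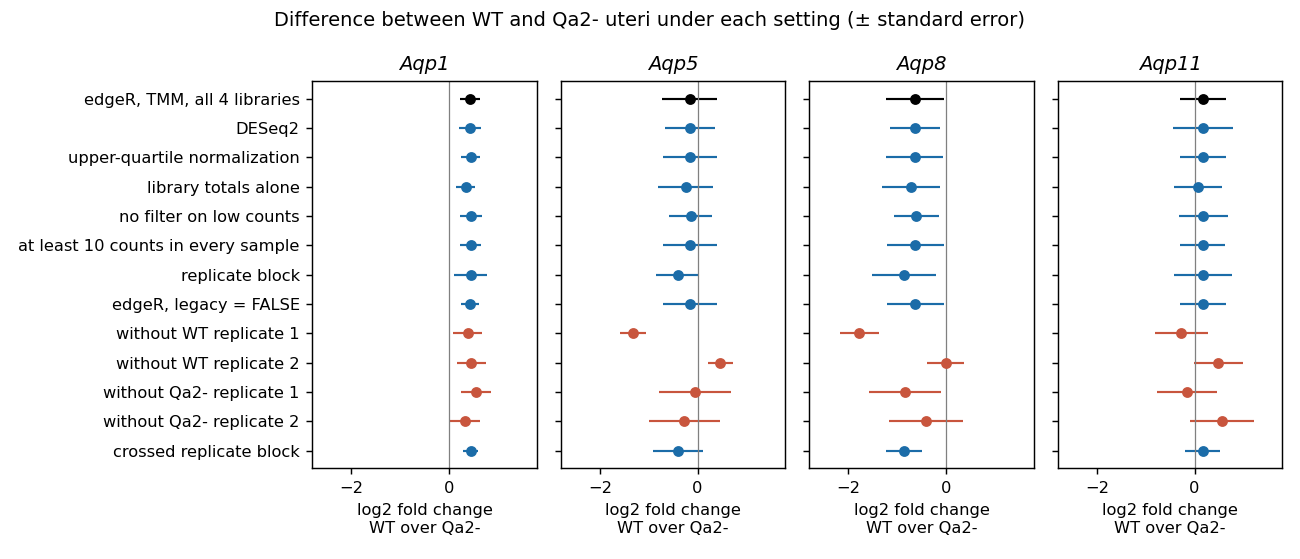
Log2 fold change of WT over Qa2- for the 4 aquaporins kept, under each processing setting and with each library left out, with its standard error as a bar. Aqp1 stays between 0.32 and 0.55, whereas Aqp8 ranges from -1.78 to -0.01 and Aqp5 from -1.32 to 0.47, with the lowest values where WT replicate 1 is left out.

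The remaining classical members were near the limit of counting. A floor of 3 counts stood for between 0.0731 and 0.0901 CPM, and the intervals here cover counting error only. Aqp2 (ENSMUSG00000023013; chromosome 15, 99579055 to 99584547, plus strand), the vasopressin-regulated channel of the renal collecting duct, had 5 and 4 counts in WT and 6 and 15 in Qa2-. The ratio of WT over Qa2- from the summed counts of 9 and 21 was 0.363 (95% exact interval 0.147 to 0.828). Both Qa2- values lay above both WT values, as they did for 32% of all genes kept in CPM and 24.5% after TMM scaling, but a fit without the filter on low counts gave an adjusted p of 0.753 (edgeR). Aqp4 (ENSMUSG00000024411; chromosome 18, 15389496 to 15410982, minus strand), the main water channel of brain astrocytes, had 0 and 2 counts in WT and 0 and 0 in Qa2-. No fold is given for it, since both groups were at or under the floor. Outside the 9 genes, Mip and Aqp12 had 0 counts in all libraries and Aqp6 had 1 count, in Qa2- replicate 1.

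The 3 aquaglyceroporins were below 1 CPM in every library. Aqp3 (ENSMUSG00000028435; chromosome 4, 41092722 to 41098183, minus strand), a channel of skin and collecting duct, had 16 and 6 counts in WT and 12 and 14 in Qa2-, and the groups overlapped. Its summed counts of 22 and 26 gave a ratio of 0.717 (95% exact interval 0.388 to 1.32). Aqp7 (ENSMUSG00000028427; chromosome 4, 41033074 to 41048139, minus strand), the glycerol channel of fat cells, had 6 and 27 counts in WT and 0 and 1 in Qa2-. Most of the WT counts came from replicate 2, and both WT values lay above both Qa2- values. The summed counts were 33 and 1, a ratio of 28 with a wide exact interval of 4.68 to 1138 at 95%. Both Qa2- counts were under the floor of 3 counts, so the size of this ratio is poorly known. In the edgeR fit without the filter, the unadjusted p was 0.0116 and the adjusted p 0.247. Aqp9 (ENSMUSG00000032204; chromosome 9, 71110659 to 71168682, minus strand), best known from liver, had 19 and 19 counts in WT and 6 and 10 in Qa2-. Both WT libraries lay above both Qa2- libraries, the ratio from summed counts of 38 and 16 was 2.01 (95% exact interval 1.1 to 3.87), and the fit without the filter gave an adjusted p of 0.732 (edgeR).

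Of 8 fat cell markers, 3 (Adipoq, Fabp4 and Pparg) had both WT values above both Qa2- values, as Aqp7 had, and 5 overlapped between the groups. The share among all genes kept was 18.7% in CPM and 25.4% after TMM scaling, and 6 of the 8 markers were not kept. The 8 adipocyte genes summed to 73.7 and 26.8 CPM in WT and 10.6 and 6.25 CPM in Qa2-, with the highest value in WT replicate 1, whereas that of Aqp7 was in WT replicate 2. Without Fabp4 and Pparg, which are also used by other cells, the sums were 27.1 and 0.635 CPM in WT and 1.29 and 0.33 CPM in Qa2-, and the groups overlapped. Adipoq was at 3.07 and 0.254 CPM in WT and 0.172 and 0 CPM in Qa2-, and Cfd, which overlapped, at 19.4 and 0.127 CPM against 0.43 and 0.12 CPM. Only Fabp4 (log2 fold change 2.67) and Pparg (1.33) of this list were kept. Pparg, at 4.92 and 7.23 CPM in WT and 2.92 and 2.25 CPM in Qa2-, was highest in WT replicate 2, as Aqp7 was. The other markers, apart from Lep with 1 count or less in each library, were highest in WT replicate 1. The part of fat cells in the Aqp7 counts was not tested.

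Over the whole family, both WT values lay above both Qa2- values for Aqp1, Aqp7 and Aqp9, the reverse held for Aqp2, and the groups overlapped for the other 5 genes. Of all genes kept, 18.7% had both WT values and 32% both Qa2- values above the other group in CPM, and 25.4% and 24.5% after TMM scaling. The orders of the 9 genes were the same in CPM from library totals and after TMM scaling. Aqp2, Aqp7 and Aqp9 did not pass the filter, so the shares of genes kept come from more abundant genes than these. The 9 genes lay on 6 chromosomes, none of them chromosome 17, which holds H2-Q6 and H2-Q7. Aqp2 and Aqp5 were neighbours with a gap of 6234 bases, and Aqp7 and Aqp3 were separated by 44582 bases. Aqp5 was at 68.2 CPM or more in every library, and Aqp2 at 0.451 CPM or less.

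Genes of pathways in which aquaporins act were described from lists, and in edgeR no gene of these lists passed the adjusted test. Their counts at an unadjusted p under 0.05 are to be read against 15.2% of all genes kept, those of DESeq2 against 4.83%, and those without overlap between groups against 18.7% (WT higher) and 32% (Qa2- higher). Of 15 genes of epithelial salt and water transport, all kept, 2 were higher and 3 lower in WT at an unadjusted p under 0.05, with a median log2 fold change of -0.10. The lowest was Slc26a4, the anion exchanger pendrin, at 15.9 and 10 CPM in WT and 23 and 135.6 CPM in Qa2- (log2 fold change -2.50, edgeR adjusted p = 0.295). Its difference rested mostly on Qa2- replicate 2. Ano1, a calcium-activated chloride channel, was the highest at 41.4 and 60.4 CPM against 34.1 and 27.5 CPM (0.82). DESeq2 called 2 genes of this list, Slc26a4 (adjusted p = 0.0072) and the chloride channel gene Cftr (adjusted p = 0.00103). Cftr was at 21.8 and 9.34 CPM in WT and 48.9 and 83.3 CPM in Qa2-, without overlap, and is named after its values were seen.

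The osmotic response list of 10 genes, all kept, had a median of 0.11, with 2 genes higher and 1 lower in WT at an unadjusted p under 0.05. Slc5a3, which imports the osmolyte myo-inositol, was at 243.6 and 104.3 CPM in WT and 394.5 and 587.1 CPM in Qa2- (log2 fold change -1.40, edgeR adjusted p = 0.293, DESeq2 adjusted p = 0.0262). Slc6a12, the betaine transporter, was at 6.92 and 1.52 CPM in WT and 1.15 and 0.421 CPM in Qa2- (2.50, edgeR adjusted p = 0.31, DESeq2 adjusted p = 0.0528). Slc6a6, the taurine transporter, was at 211.2 and 159.8 CPM in WT and 137.2 and 117.3 CPM in Qa2- (0.63, edgeR adjusted p = 0.302, DESeq2 adjusted p = 0.164). These 3 osmolyte transporters were without overlap between groups, Slc5a3 higher in Qa2- and the other genes higher in WT. Both WT sums of the epithelial list were below both Qa2- sums, though 7 of its 17 genes overlapped between the groups. Slc5a3 was lowest in WT replicate 2, as Aqp8, Aqp5 and 32.2% of all genes kept were. The part of epithelial cells in the Slc5a3 values was not tested.

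Among 8 genes of glycerol release and use, 7 were kept, with a median of -0.05 and 1 gene in each direction at an unadjusted p under 0.05. Lpl, the lipase that frees fatty acids from circulating lipoproteins, was at 135.1 and 56.3 CPM in WT and 31.8 and 32.3 CPM in Qa2- (log2 fold change 1.67, edgeR adjusted p = 0.256, DESeq2 adjusted p = 0.00434). Gpd2, the mitochondrial glycerol phosphate dehydrogenase, was at 38.2 and 23.8 CPM against 71.6 and 75.2 CPM (-1.15, edgeR adjusted p = 0.246, DESeq2 adjusted p = 0.00751). Of 12 anchoring and trafficking genes 9 were kept, 2 of them higher in WT at an unadjusted p under 0.05, with a median of 0.15. Dtna, a dystrophin-associated scaffold gene, was the highest (0.96) and Ezr, the membrane linker ezrin, the lowest (-0.70). The vasopressin receptor gene Avpr1b had 0 counts throughout. Of 5 steroid receptor genes 4 were kept, and Esr1, the oestrogen receptor gene, was at 219.5 and 261 CPM in WT and 355 and 423.3 CPM in Qa2- (-0.60, edgeR adjusted p = 0.314), while Pgr, the progesterone receptor gene, was at 0.04.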

How the data were processed

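Uterine RNA of 2 WT and 2 Qa2- mice was poly(A)-enriched, and stranded libraries were sequenced in pairs. The authors deposited raw counts of read pairs, made with STAR 2.7.3a and featureCounts 2.0.0 (Subread) on GRCm38.p6 according to the submitters' processing notes. GENCODE M21 gave symbols for 55154 of 55421 identifiers. No listed aquaporin shared an exon base with another gene.

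The 14492 genes kept (1 CPM or more in 2 libraries or more) were compared with edgeR 4.0.16 (TMM, glmQLFit, glmQLFTest, R 4.3.3), with Benjamini-Hochberg adjustment over all of them, a threshold of 0.05 and WT over Qa2- as the direction. CPM used library totals. Replicates differed by more than sampling noise (chi-square per gene 188 and 118). Alternatives were DESeq2 1.42.0, other scalings and filters, the other quasi-likelihood fit of edgeR, a replicate block and leaving out each library. Steps were tested on simulated data with 200 changed genes.

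The members, gene lists and motifs were chosen with earlier results of these data known. The naming rule took all aquaporins, H2-Q6 and H2-Q7, the highest and lowest kept gene of each list, and the 3 genes most like each of the 3 most variable aquaporins kept. Afp, Prom1, Ltf, Cftr, Slc6a6, Adipoq, Cfd, Lep, Upk1b, Lrrn4, Rhag, Avpr1b and the trophoblast genes other than Tpbpa were named outside it, after their values were seen.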

Additional observations from a re-analysis of the deposited data

How the results depend on the processing

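The direction of Aqp1 and Aqp8 was kept in all 12 alternatives, that of Aqp5 in 11 and that of Aqp11 in 10, and no aquaporin was called in any of them. With all 4 libraries the log2 fold changes lay between 0.34 and 0.45 for Aqp1, -0.86 and -0.61 for Aqp8, -0.41 and -0.14 for Aqp5, and 0.07 and 0.18 for Aqp11. Leaving out single libraries gave 0.32 to 0.55 for Aqp1, -1.78 to -0.01 for Aqp8, -1.32 to 0.47 for Aqp5 and -0.27 to 0.56 for Aqp11. The sign turned for Aqp5 without WT replicate 2 (0.47) and for Aqp11 without WT replicate 1 (-0.27) and without Qa2- replicate 1 (-0.15). For Aqp8 almost no difference was left without WT replicate 2 (-0.01). Without WT replicate 1 the values were -1.32 for Aqp5 (edgeR adjusted p = 0.116) and -1.78 for Aqp8 (adjusted p = 0.131), with the remaining WT library assumed to vary like the Qa2- ones. The median of the 4 members then moved to -0.80, within a range of -0.80 to 0.47 over the libraries left out. The cause was not tested. Adjusted p-values over the alternatives ranged from 0.189 to 0.855 for Aqp1, 0.131 to 0.993 for Aqp8, 0.116 to 0.986 for Aqp5 and 0.745 to 0.955 for Aqp11.

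Over all genes, calls higher and lower in WT were 404 and 296 with DESeq2, 47 and 14 without a filter on low counts, and 2 higher in WT with the replicate block. Leaving out libraries gave 0 to 45 higher, the 45 without WT replicate 2, and 0 lower. Same-numbered libraries tended to deviate in opposite directions (correlation -0.369), so the numbers were not taken to pair the mice. With 2 libraries per group, the crossed pairing has the same correlation with the opposite sign. With the replicate block, Aqp1 was at 0.44, Aqp5 at -0.41, Aqp8 at -0.86 and Aqp11 at 0.17, and no aquaporin call changed. The crossed pairing, chosen after seeing the data, called 0 genes (edgeR adjusted p = 0.189 for Aqp1 and 0.226 for Aqp8). At an unadjusted p under 0.05, 1172 genes were higher and 1027 lower in WT (53.3% higher), and with library totals alone 852 and 1457 (36.9% higher), with a median of all genes of -0.083. For the 5 members below 1 CPM, depth limits what could be detected, and differences between mice add to the counting error.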

Other observations

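Other cells of the uterus gave the following values beside those described for Aqp1, Aqp5, Aqp7 and Aqp8, where over all genes kept 15.2% had an unadjusted p under 0.05 in edgeR and 4.83% were called by DESeq2. Of 10 leukocyte genes 8 were kept, 3 of them higher in WT at an unadjusted p under 0.05 in edgeR and 2 called by DESeq2, with a median log2 fold change of 0.69 and extremes Itgam (1.04) and Ptprc (-0.33). Of 10 decidual stroma genes 8 were kept, again 3 of them higher in WT at that p and 1 called by DESeq2, with a median of 0.53, Prl8a2 being the highest (106.9 and 1.95 CPM in WT, 3.98 and 13.9 CPM in Qa2-) and Wnt4 the lowest (-0.19). The smooth muscle list had a median of 0.91, from Des (1.22) to Synpo2 (0.23), with 0 of 9 genes at an unadjusted p under 0.05 in edgeR and 2 called by DESeq2. The epithelial list had a median of -0.77, from Wfdc2 (-0.28) to Elf3 (-1.45), with 4 of 17 genes lower in WT at an unadjusted p under 0.05 and 2 called by DESeq2.

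Fetal markers were not even between libraries. The 9 yolk sac genes summed to 965.1 and 65.4 CPM in WT and 579.6 and 47.1 CPM in Qa2-. Rbp4 made up 955.6 CPM of the first value, and the other 8 genes summed to 9.48, 51.6, 572.2 and 35 CPM. The extremes in log2 fold change were Rbp4 (5.72) and Apob (-3.60). The 11 trophoblast genes summed to 0.828 and 33.6 CPM in WT and 3.89 and 0.27 CPM in Qa2-, and only Tpbpa (1.10) was kept. Psg23, Psg21, Tpbpa, Prl8a9 and Prl3b1 had 395, 308, 271, 171 and 155 counts in WT replicate 2, whereas Gcm1, Synb and Ctsq had 0 counts in all 4 libraries.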
